A study of Drosophila melanogaster with 42 samples.

Results

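Heterochromatin protein 1 (HP1) covered at least 50% of the body of 138 protein-coding genes in Drosophila intestinal stem cells (ISCs), of 13633 such genes on the 5 large arms (2L, 2R, 3L and 3R, and X). These 138 genes were selected on their HP1 coverage, and genes whose symbol starts with RpL, RpS or His were not considered. In what follows they are called the HP1-covered genes. A gene body runs from the start to the end of the RefSeq gene in genome release 6. The gene table used here has no strand and no exons, so a peak is placed against the body and its ends and not against a promoter, an exon or an intron.

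HP1 binds methylated histone H3 and is the defining protein of pericentric heterochromatin, the repeat-rich chromatin on either side of the centromere. Genes that lie there, such as light (lt) and rolled (rl) in the fly, tend to be long, with introns full of repeats, and classical genetics showed that some of them need the heterochromatic surroundings for their expression. RNA polymerase II (RNA Pol II) marks transcribed genes. Kismet is a CHD-family chromatin remodeler, Trr is a histone H3 methyltransferase of the MLL family, Brahma is the ATPase of the SWI/SNF remodeling complex, Polycomb is a repressor of developmental genes, and histone H1 is the linker histone.

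Each protein had been profiled by targeted DamID, in which Dam, a bacterial DNA adenine methyltransferase, is fused to the protein and methylates GATC sites near the places where it binds. All flies were esg-gal4ts NREGal80, a driver restricted to ISCs, and carried UAS-Dam, UAS-DamKis, UAS-DamPolII, UAS-DamPolycomb, UAS-DamBrm, UAS-DamTrr or the HP1 and H1 fusions. The genotype entries of the HP1 and H1 samples read DamHP1, DamHP2 and DamHP3, and DamH1, DamH2 and DamH3, and the sample titles decided their assignment. Flies raised at 18°C spent 1 day at 29°C from 3 days of age to induce Dam, and each sample came from 60 pooled guts, 3 for each fusion and 11 of Dam alone. RNA Pol II and Kismet used 1 set of 3 Dam-only samples, Brahma, HP1 and H1 used another 3, Polycomb was called against 3 of which 1 was shared with the latter, and Trr against 3 of its own.

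The values are peak positions only, with 1 list per protein called over its 3 samples. The depth is therefore unknown, no spread between replicates can be given, and no comparison below has a test. Because a list describes a pool of cells, weak binding in many cells and strong binding in a few cannot be told apart. On the 5 arms the HP1 list held 1988 peaks, of 1473 bp at the median, that covered 10% of the sequence, beside 6762 peaks and 9.94% for RNA Pol II, and beside 129 peaks and 0.0327% for H1. All 4 ISC markers looked up (esg, Dl, Sox21a and spdo) had RNA Pol II, on 26.4% to 100% of the gene. Of the enteroendocrine markers only pros had it, on 0.977% of its length, and of the enterocyte markers nub (6.43%) and Myo31DF (55.6%) had it while betaTry did not. The part of other cells in the lists was not tested.

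The HP1-covered genes fell into 4 sets by position. Distance was measured from the gene centre to the centromere-proximal end of the arm, which was set at the highest gene or peak position on 2L, 3L and X and at the first base on 2R and 3R. 67 genes lay within 5 Mb of that end outside an array of similar genes on X and are called pericentric. The array held 21 genes, 10 genes formed a flank at 5.07 to 5.67 Mb on 2R, and 40 genes lay farther out, from 5.91 to 30.31 Mb, and are called distal. The name pericentric domain therefore did not hold for the 40 distal genes. These sets were drawn after the positions had been seen.

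**Figure D1:**
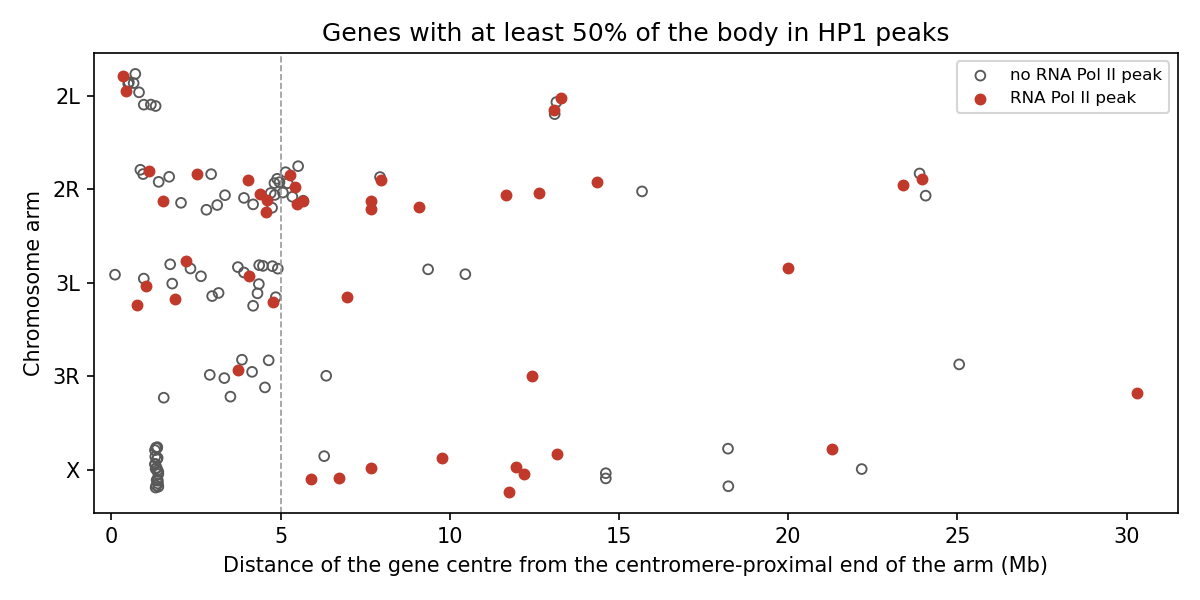
Each point is 1 of the 138 HP1-covered genes, placed by chromosome arm and by the distance of its centre from the centromere-proximal end in Mb. Filled points had at least 1 bp in an RNA Pol II peak, the dashed line is at 5 Mb, and the vertical spread within an arm has no meaning. The X points near the end are the 21 genes of the array, none with RNA Pol II.

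The arms contributed unequally. There were 47 HP1-covered genes on 2R, 36 on X, 28 on 3L, 14 on 2L and 13 on 3R, which is 1.66%, 1.65%, 1.03%, 0.554% and 0.386% of the genes of each arm. No pericentric gene outside the array lay on X. Along the arms the 138 genes formed 69 runs with no other coding gene between them, of which 51 held 1 gene. The remaining 18 runs held 87 genes, and neighbours in a run can share HP1 peaks, so they are not independent observations. The run of 10 genes from UQCR-11 to Dbp80 spanned 2301451 bp of 3L, and 4 of the 10 had RNA Pol II.

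The sets differed in gene length and in the kind of HP1 peak that covered them. Pericentric genes had a median length of 19455 bp, ranging from 546 to 1965857 bp, and 52 of 67 were covered by several HP1 peaks. The longest was Myo81F, a myosin gene on 3R from 567076 to 2532932, with 146 HP1 peaks on 65.7% of its length. Next came Pzl, a Piezo-like channel gene of 709421 bp on 3R, and lovit, a gene of synaptic vesicle transport of 434041 bp on 3L. Distal genes had a median length of 1338 bp and a maximum of 4873 bp, and 34 of 40 were covered by 1 HP1 peak. The longest peak on each distal gene had a median of 1264 bp, against 21788 bp for the pericentric genes, so a distal gene passed the 50% threshold through a short peak on a short body. Some genes called pericentric by distance passed in the same way. Examples on 3R were Mur82C (1860 bp, HP1 peak of 1330 bp) and CG40198 (1626 bp, HP1 peak of 1111 bp). The shortest HP1-covered genes were CG30380 (459 bp), CG43255 (490 bp) and CG41242 (546 bp), of which the first 2 are distal and CG41242 is pericentric.

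HP1 coverage within the 138 genes had a median of 76.9%, with 35 genes covered completely. These values follow from the selection and are given as a description. Just inside the threshold were CG12567 (50.12%), Septin5 (50.25%) and CG17698 (50.30%). Just outside were CG7634 (49.66%), wupA (49.49%), the gene of a troponin subunit, and CG33109 (49.46%). 31 genes had 40% to under 50% of the body in HP1 peaks and 19 had 50% to under 60%, so the threshold cut through a continuous range.

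RNA Pol II was found on fewer of the HP1-covered genes than on genes at large. At least 1 bp of the body lay in an RNA Pol II peak in 44 of the 138 genes, or 31.9%, where the background over all 13633 genes was 46.2%. The sets differed widely. RNA Pol II was on 16 of 67 pericentric genes (23.9%), 0 of 21 array genes, 4 of 10 flank genes (40%) and 24 of 40 distal genes (60%). Of the 826 genes that lay in the same centromere-proximal 5 Mb but had HP1 on less than 50% of the body, 415 (50.2%) had RNA Pol II, as did 45 of the 72 among them with at least 1 bp of HP1 (62.5%). The lower share was thus not seen in these 826 genes, but they were not matched to the HP1-covered genes by position within the 5 Mb. Of the 826 genes, 754 had no HP1. On 2L the pericentric HP1-covered genes reached only 1.31 Mb (Ir40a), and on X only the array lay within the 5 Mb. Whether the share depends on position within the 5 Mb was not tested.

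**Figure D2:**
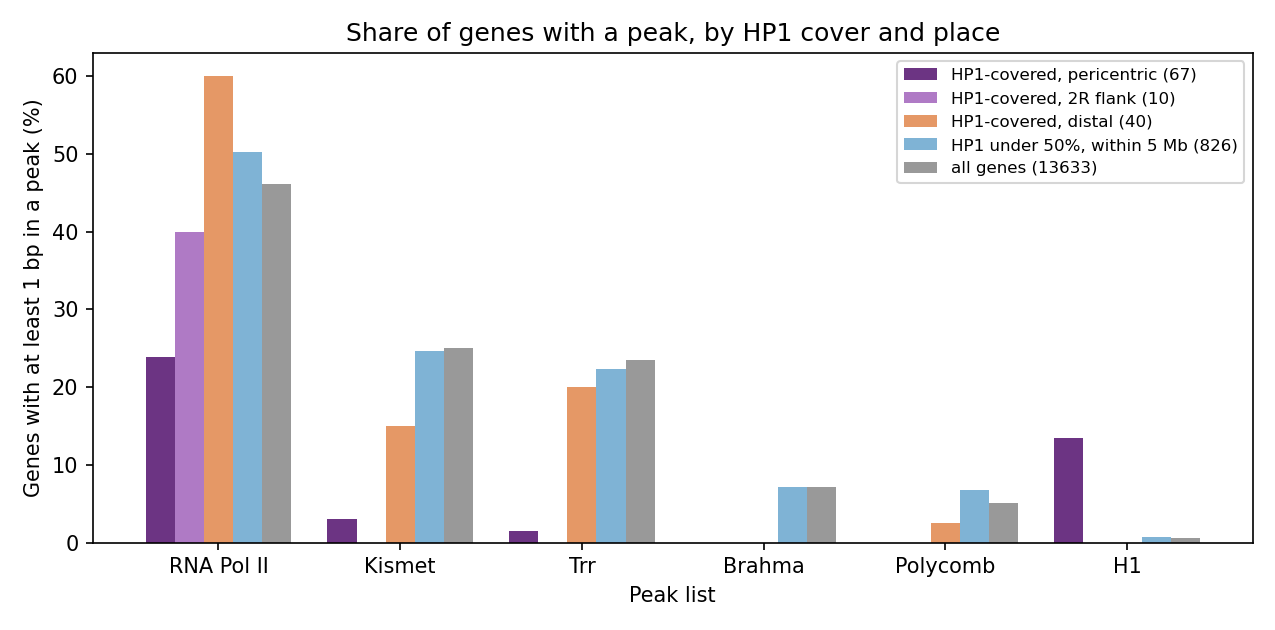
Bars give the percentage of genes with at least 1 bp of the body in a peak of each list, for HP1-covered genes in 3 of the 4 sets, for genes within 5 Mb of the centromere-proximal end with HP1 on less than 50%, and for all genes; numbers of genes are in brackets, and there are no error bars because each list is a single call. RNA Pol II was on 23.9% of pericentric and 60% of distal HP1-covered genes, against 46.2% of all genes, and H1 was on 13.4% of the pericentric genes.

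A long gene has more room for a peak, and the pericentric genes were long. Among genes of 50 kb or more, RNA Pol II was on 5 of 24 HP1-covered genes (20.8%) and on 63.8% of the other genes. Between 10 and 50 kb the shares were 12 of 30 (40%) and 60.1%, and between 2 and 10 kb they were 6 of 18 (33.3%) and 54%. Under 2 kb the shares were 21 of 66 (31.8%) and 35.6%, and here the HP1-covered genes were a mixture, with RNA Pol II on 2 of 11 pericentric, 0 of 21 array and 19 of 32 distal genes. The class of 2 to 10 kb was a mixture too, with RNA Pol II on 1 of 9 pericentric and 5 of 8 distal genes (62.5%). The distal shares were thus above those of the other genes of their length in both of these classes, and the pericentric shares below them. In the class of 2 to 10 kb the counts are small. The RNA Pol II peaks of all 24 distal genes also touched another coding gene, so the distal shares may not belong to these genes. How often this holds for the other genes of their length is not given here.

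The 16 pericentric genes with RNA Pol II mostly carried it on a small part of the body. They held between 118 bp (Dbp80) and 1829 bp (CG12567) of RNA Pol II peaks, in bodies of 1513 to 215672 bp. The median was 951 bp, close to the 816 bp of all genes with RNA Pol II. Genes of the same 5 Mb with less HP1 had a median of 932 bp where RNA Pol II was present. Together the 67 pericentric genes had 14838 bp in RNA Pol II peaks, which is 0.237% of their sequence, against 13.1% for the genes of the same 5 Mb with less HP1. None of the 16 was completely covered by HP1, while 9 of the 51 without RNA Pol II were. Length was not matched here, and a short gene is more easily covered completely. Most of the 9, from CG41242 (546 bp) to CG14464 (1342 bp), were shorter than any of the 16. The exceptions were CG17493 (6232 bp) and CG17715 (10322 bp). Median HP1 coverage was 66.8% in the 16 and 77.7% in the 51.

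Which of these genes are known is given by role, from a list of 24 classical pericentric genes, 18 of which passed the 50% threshold. For comparison, RNA Pol II was on 31.9% of the 138 genes and on 46.2% of all genes. The counts per role are too small to compare roles. Among genes of signalling and adhesion, 5 of 6 were HP1-covered and 3 of the 5 had RNA Pol II. Rolled (rl, FBgn0003256, 2R from 1071462 to 1125927) encodes the ERK kinase at the end of the EGFR pathway. Of its 54466 bp, 40849 bp (75%) lay in 10 HP1 peaks and 1034 bp in an RNA Pol II peak, with 0 bp in both. The gene of p120-catenin (p120ctn, FBgn0260799, 2R from 4595288 to 4609492), a protein of adherens junctions, had 1432 bp in RNA Pol II peaks, again with 0 bp in both. Gprk1 (FBgn0260798, 2R from 4322295 to 4471060), a kinase of G-protein-coupled receptors, had 834 bp, of which 386 bp were also in HP1 peaks. The G-protein gene cta and the ion transporter gene uex were HP1-covered without RNA Pol II. Pld, a phospholipase gene at 6.25 Mb on 2R, was on the list but had no HP1.

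Genes of RNA metabolism and translation gave 4 HP1-covered of 6 listed, 3 of the 4 with RNA Pol II. Maf1 (FBgn0267861, 2R from 1512810 to 1527095), a repressor of RNA polymerase III, had 1250 bp in RNA Pol II peaks, 4 bp of them in HP1. The splicing factor gene Spf45 (FBgn0086683, 2L from 23066874 to 23068386) had 215 bp, none in HP1. The RNA helicase gene Dbp80 (FBgn0024804, 3L from 27279316 to 27422159) had 118 bp in a body of 142844 bp, 4 bp of them in HP1. AGO3, an Argonaute of the piRNA pathway, was HP1-covered on 77.6% of 135048 bp and had no RNA Pol II peak. The listed genes su(f) and eIF4B had neither HP1 nor RNA Pol II peaks.

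Among chromatin and chromosome genes, 5 of 7 were HP1-covered and 1 of the 5 had RNA Pol II, near the 23.9% of the pericentric set. This was Haspin, a histone H3 kinase gene on 2R from 4014111 to 4049342, with 668 bp of RNA Pol II and HP1 on 97.3% of the body. The genes without a peak were Nipped-A (subunit of histone acetyltransferase complexes), Nipped-B (loading of cohesin), vtd (cohesin subunit) and Parp1 (poly(ADP-ribose) polymerase), with HP1 on 82.6%, 53.9%, 50.8% and 89.4% of the body. The other two listed genes had RNA Pol II. Set1, a histone H3 methyltransferase gene, had 944 bp of it and HP1 on 15% of the body, and Yeti had 776 bp and no HP1. Among genes of vesicle traffic, cytoskeleton and metabolism, 4 of 5 were HP1-covered and 0 of the 4 had RNA Pol II. These were Snap25 (a SNARE of synaptic vesicle fusion), Myo81F, nvd (an enzyme of ecdysone synthesis) and Cht10 (a chitinase, listed under its older symbol Cht3). The fifth, lt, a gene of vesicle traffic to the lysosome, had HP1 on 22.2% and 631 bp of RNA Pol II. Over the whole list RNA Pol II was on 7 of 18 HP1-covered genes and on 4 of the 6 others, beside 46.2% of all genes. The list was chosen by hand, and no difference is read from these small counts.

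Other pericentric genes with RNA Pol II were seen outside the list and are named after their values were known. Alpha-Cat, the alpha-catenin gene, had 836 bp of RNA Pol II in 19455 bp. Tim17b, of the mitochondrial import machinery, had 1289 bp, the kinase gene Stlk 945 bp, the transporter gene MFS17 958 bp, and l(3)80Fg 993 bp. CG12567, CG40045, CG40160 and CG40228 had 1829, 1230, 500 and 707 bp.

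In pericentric genes RNA Pol II lay almost entirely in gaps between HP1 peaks. Of the 14838 bp in RNA Pol II peaks, 414 bp (2.79%) were also in HP1 peaks, although HP1 covered 4617225 bp of these genes and left 1650888 bp uncovered. RNA Pol II thus occupied 0.00897% of the HP1-covered base pairs and 0.874% of the HP1-free base pairs. Of the 16 genes, 8 had no base pair in both lists and 7 had exactly 4 bp per gene. The 4 bp are the length of the GATC site at which 2 neighbouring peaks end and begin, so these 7 genes had RNA Pol II peaks that abut an HP1 peak. Within gene bodies Gprk1 was the exception with 386 bp. Counted over whole peaks, which can leave the gene, 1208 of 20573 bp (5.87%) were in HP1, of which the peaks of Gprk1, Haspin and Tim17b had 820, 329 and 23 bp. HP1 and RNA Pol II were called against different Dam-only samples.

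**Figure D3:**
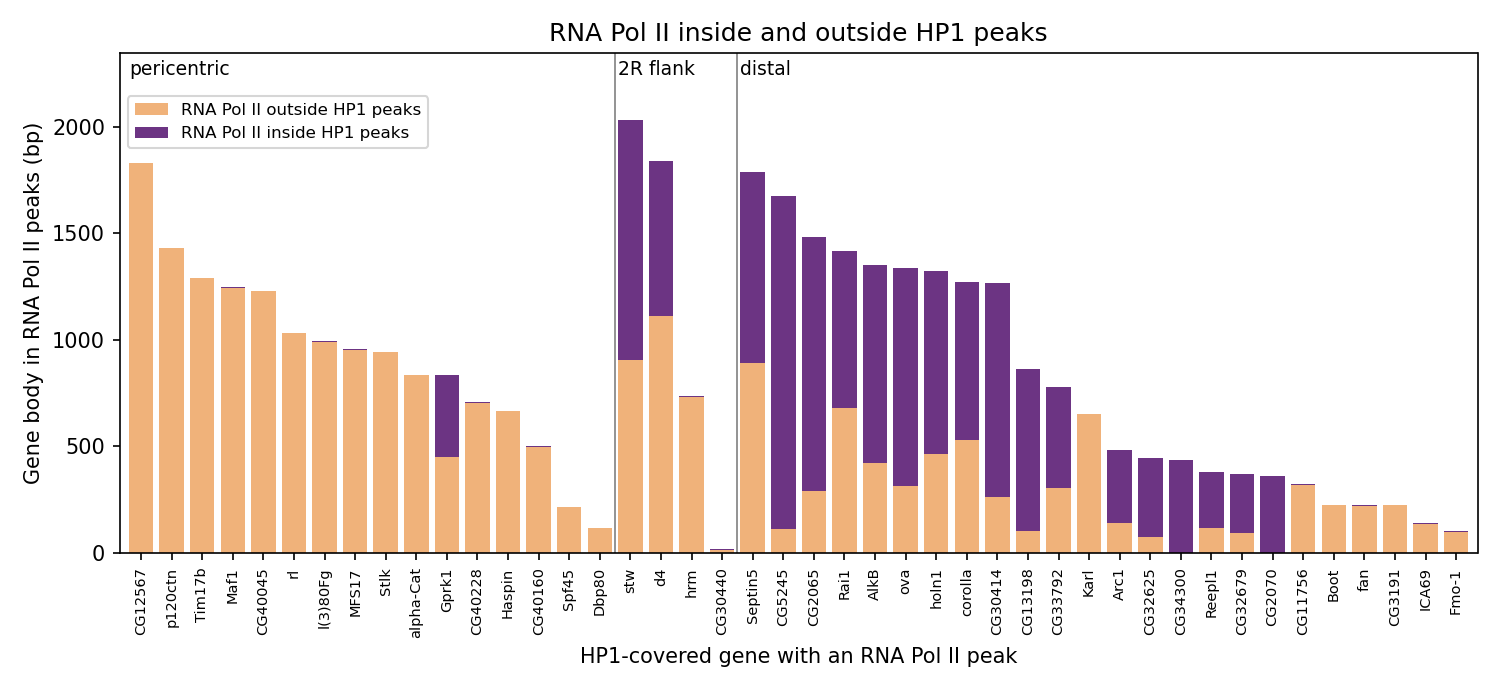
Stacked bars give, for the 44 HP1-covered genes with RNA Pol II, the base pairs of the body in RNA Pol II peaks outside (light) and inside (dark) HP1 peaks. Among the 16 pericentric genes Gprk1 alone has a visible dark part, of 386 bp. In distal genes such as CG5245, with HP1 on 93.3% of the body, most of the RNA Pol II is inside HP1.

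In 15 of the 16 genes the centre of the RNA Pol II peak lay in an HP1-free gap, of 814 bp (Dbp80) to 10660 bp (CG40045), with a median of 2009 bp. In 10 of the 15 the peak reached the HP1 peak on at least 1 side, and in MFS17 it filled its gap of 1179 bp from edge to edge. In rl the gap was 2175 bp, and the peak of 1034 bp began 147 bp from HP1 on 1 side and ended 994 bp from it on the other. In CG12567 the peak of 1829 bp left 38 bp and 53 bp of a 1920 bp gap. Of 51 gaps that touched a gene end, 9 (17.6%) held RNA Pol II, as did 7 of 621 gaps (1.13%) inside the genes. The end gaps, clipped at the gene, had a median of 1456 bp and the inside gaps one of 861 bp, so place and width moved together and cannot be told apart here. Inside the genes the gaps with RNA Pol II were wider, with a median of 2175 bp against 847 bp without it, while at the ends the medians were 1456 and 1484 bp. An HP1-free gap is a stretch outside the list, and whether its GATC sites had enough reads to be tested is not known.

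**Figure D4:**
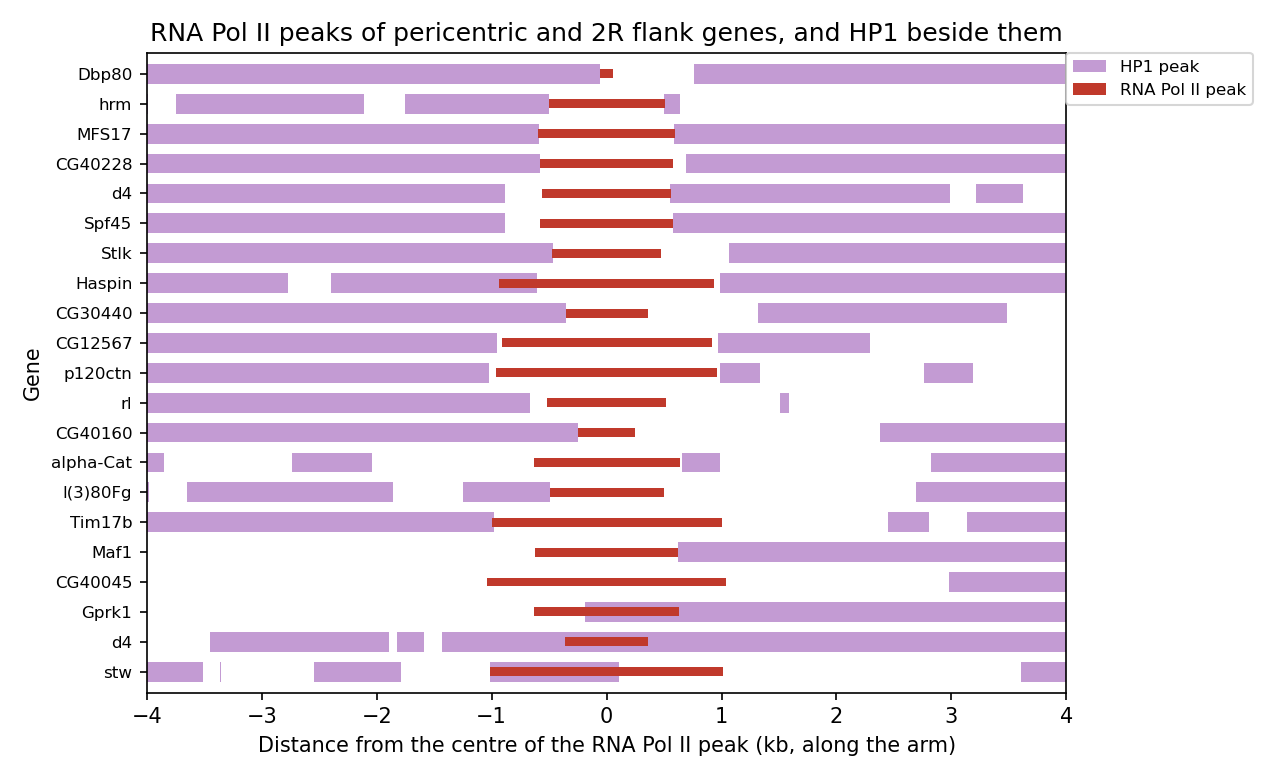
Each row is an RNA Pol II peak of a pericentric or 2R flank gene, drawn to scale in kb from its centre along the arm, with the HP1 peaks within 4 kb. In 18 of the 21 rows the centre lies in an HP1-free gap, and the rows of Gprk1, stw and the second of d4 show a peak centred in HP1.

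Peaks were also averaged around the ends of the long HP1-covered genes. For the 17 genes of at least 10 kb with RNA Pol II, both ends were aligned, since the strand was not known. RNA Pol II covered 0% of the base pairs from 5000 to 1500 bp outside the ends, 28.1% of the first 500 bp inside and 33.1% of the next 500 bp. HP1 covered 85.2% at 2000 to 2500 bp outside and 49.4% in the first 500 bp inside. In the 37 long genes without RNA Pol II, HP1 covered 76.5% at 1000 to 1500 bp outside and 55.3% in the first 500 bp inside. It then stayed between 57.3% and 64.2% up to 4500 bp inside and was 71.6% in the last bin, so in these genes it was lower along the inner stretch and not at the end alone. In the genes with RNA Pol II it was 74.5% at 2500 to 3000 bp inside, at most 75.8% (3500 to 4000 bp) and 66.2% in the last bin. Inside these genes too it thus stayed below the 77.7% to 85.2% seen from 1500 to 5000 bp outside.

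**Figure D5:**
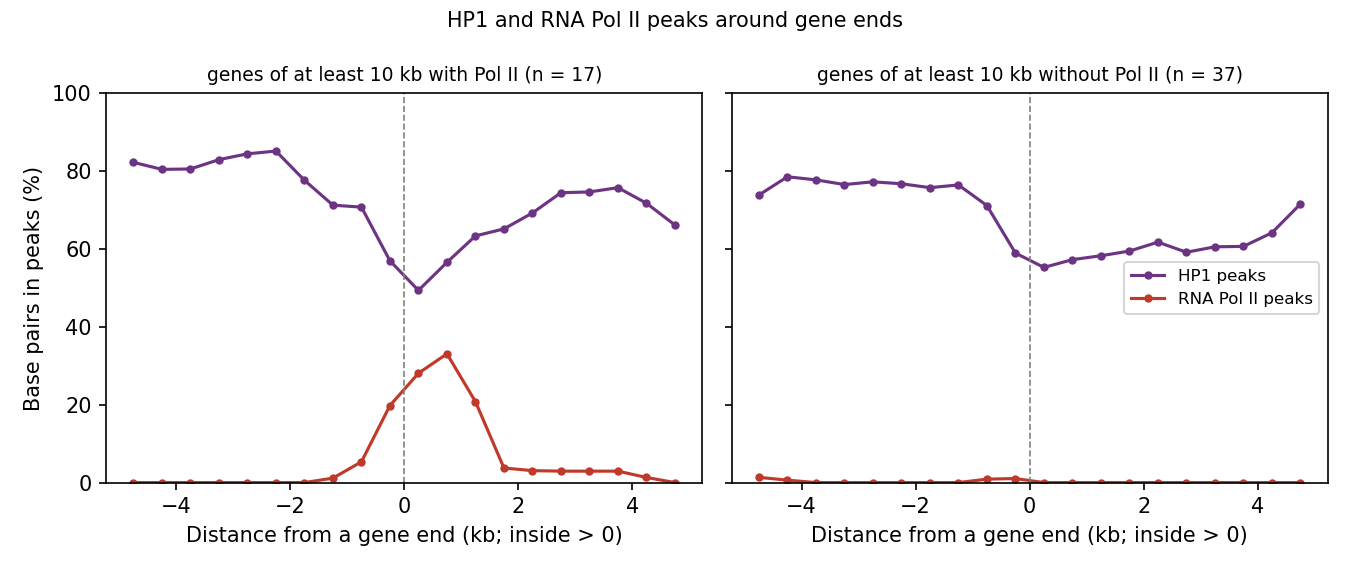
Lines give the percentage of base pairs in HP1 peaks and in RNA Pol II peaks in bins of 500 bp around both ends of HP1-covered genes of at least 10 kb, with RNA Pol II (left, 17 genes) and without it (right, 37 genes); positive distances are inside the gene. HP1 is lowest in the first 500 bp inside, at 49.4% and 55.3%, and RNA Pol II reaches 33.1% on the left only, where genes were chosen for having it.

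In RNA Pol II only, the 10 genes of the 2R flank stood between the pericentric and the distal genes, which rests on 4 genes. Their median length of 19722 bp was close to the 19455 bp of the pericentric genes. Kismet and Trr were on 0 of the 10. Together the 10 genes had 4626 bp in RNA Pol II peaks, of which 1860 bp (40.2%) were in HP1. These came from stw, a laccase gene on 2R from 5413744 to 5456095, with 1126 of its 2033 bp in HP1, and from d4, a gene of the DPF zinc-finger family, with 726 of 1839 bp. The d4 gene had 2 RNA Pol II peaks, a peak of 722 bp wholly within HP1 and a peak of 1117 bp in a gap of 1437 bp. The other two genes with RNA Pol II, hrm (738 bp) and CG30440 (16 bp), had 4 bp in HP1 each. Nipped-A, with 73058 bp the longest gene of the flank, had no RNA Pol II.

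In distal genes RNA Pol II and HP1 shared base pairs. Of 18926 bp in RNA Pol II peaks, 12262 bp (64.8%) were in HP1 peaks. HP1 covered 42202 bp of these genes and left 19842 bp uncovered. A high share in HP1 thus follows largely from the selection. RNA Pol II occupied 29.1% of the HP1-covered and 33.6% of the HP1-free base pairs of these genes. Overlaps of more than 4 bp were found in 17 of the 24 distal genes with RNA Pol II, in 2 of 4 flank genes and in 1 of 16 pericentric genes. In 9 distal genes the RNA Pol II peak covered the whole body. In all 24 the peak left the gene and also touched another coding gene, so that the peak cannot be assigned to the HP1-covered gene. This was so in 0 of 16 pericentric and 0 of 4 flank genes with RNA Pol II, which were mostly longer. The same count for other short genes is not given here.

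The genes that kept most RNA Pol II inside HP1 were nearly all distal. CG5245 (3R from 12429560 to 12431235) led with 1563 of 1676 bp. It was followed by CG2065 with 1193 of 1484 bp, stw of the flank, ova with 1025 of 1339 bp and CG30414 with 1008 of 1269 bp. Ova is known for transposon silencing in the female germline. AlkB, a homolog of bacterial DNA repair demethylases, had 934 of 1354 bp. Septin5, of the septin cytoskeleton, had 899 of 1789 bp, holn1 857 of 1322 bp and CG13198 763 of 865 bp. Corolla, known as a component of the synaptonemal complex in meiosis, had 741 of 1271 bp. The genes farthest from the centromere were CG34300 at 30.31 Mb on 3R, CG11786 at 25.05 Mb, and CG13563, Fmo-1 and PHDP at 23.88 to 24.06 Mb on 2R. Of these 5, CG34300 had 437 bp of RNA Pol II and Fmo-1, a flavin monooxygenase gene, had 100 bp.

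Kismet and Trr were rare on the HP1-covered genes. Kismet was on 8 of 138 (5.8%) against a background of 25% of all genes, and Trr on 9 of 138 (6.52%) against 23.5%. In the pericentric set Kismet was on 2 genes, with 969 bp in CG12567 and 232 bp in l(3)80Fg, and Trr on 1, with 268 bp in CG12567. None of these base pairs were in HP1. The genes of the same 5 Mb with less HP1 had Kismet in 24.6% and Trr in 22.3% of cases. CG12567 (FBgn0039958, 2L from 23161122 to 23174484) was thus the only pericentric HP1-covered gene with peaks of RNA Pol II, Kismet and Trr, and all 3 peaks ended at the same base, 23174099, where RNA Pol II and Kismet share their Dam-only samples. It was also the gene closest to the 50% threshold.

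In distal genes Kismet was on 6 of 40 (15%) and Trr on 8 of 40 (20%), and these genes were short. Under 2 kb Kismet was on 12.5% of distal genes and 11.8% of genes not HP1-covered, and Trr on 18.8% and 11.7%. Between 2 and 10 kb each was on 2 of 8 distal genes (25%), against 28.1% for Kismet and 28.8% for Trr. Kismet and Trr were thus not rare on distal genes for their length. CG2065 had the most of each, 1437 bp of its 1484 bp, from a Kismet peak and a Trr peak with the same 2061 bp. CG13198 had 865 bp in a Kismet peak of 15886 bp that extends far beyond the gene. Septin5 had 490 bp and Boot 459 bp in Trr peaks. Of the distal base pairs in peaks, 73% for Kismet and 74.2% for Trr were in HP1. By selection HP1 was on most base pairs of these genes, so these shares are not read as a relation. Kismet was on 6.12% of the HP1-covered and 4.82% of the HP1-free base pairs, and Trr on 5.91% and 4.38%. Trr was called against its own Dam-only samples, and its 9 genes all had RNA Pol II, which is 20.5% of the 44 genes with RNA Pol II. Of those 9, 5 had Kismet, which is 62.5% of the 8 genes with Kismet. The same overlaps over all genes are not given here, so these counts are not read as particular to the HP1-covered genes.

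Brahma had no peak on any of the 138 genes, where 7.12% of all genes had one. With 1 kb added on both sides of the body, 1 of the 138 genes reached a Brahma peak. Polycomb was on 1 gene (0.725%) against 5.08% of all genes. This was dhd, a thioredoxin gene of the female germline on X from 5312171 to 5313125, with 27 bp at 1 end of the gene. Brahma shares its 3 Dam-only samples with HP1 and Polycomb shares 1, so these counts are listed beside the HP1 selection and are not read as a relation with it.

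H1 had the opposite pattern in count. It was on 9 of the 138 genes (6.52%), where 0.653% of all genes had an H1 peak. All 9 were pericentric (13.4% of 67) and at least 50 kb long. Of HP1-covered genes of that length 9 of 24 (37.5%) had H1, against 6.38% of the other genes. Length was not matched within this class, as 15 of the 24 were at least 100 kb, against 68 of the 282 others. By base pairs H1 covered 0.121% of the 138 genes and 0.0343% of all genes. Gprk1 had the most, 3151 bp, of which 3143 bp formed 1 peak. Lovit had 1704 bp in 2 peaks and l(3)80Fg 1068 bp in 1. The other 6 were dpr21, an immunoglobulin-domain gene with 970 bp in 4 peaks, Snap25 (379 bp), l(2)41Ab (290 bp), nvd (282 bp), Pzl (135 bp) and CG41520 (13 bp). H1 and HP1 have all 3 Dam-only samples in common, and the part of these shared samples in the count was not tested. Of the 9 genes, Gprk1 and l(3)80Fg also had RNA Pol II.

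The array on X was HP1-covered without a peak of any other protein. Its 21 genes (CG40813, CG46504 to CG46522 and CG41562) lay between 22143058 and 22252414, 1.29 to 1.39 Mb from the centromere-proximal end. Of these, 19 had the same length of 876 bp, and the genes started a median of 4996 bp apart. A single HP1 peak of 121573 bp, from 22133737 to 22255309, covered all 21, with 0 bp in any of the 6 other lists. No peak of any list began or ended inside it. Whether its GATC sites had enough reads to be tested is not known. Neither the unbroken HP1 peak nor the lack of other peaks is therefore read as a finding about these genes. Their sequences were not examined here, and if they are near-identical copies, reads cannot be assigned to 1 of them, so the array is better counted as 1 observation than as 21. Without it RNA Pol II was on 44 of 117 HP1-covered genes, or 37.6%.

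In all, 86 of the 138 genes (62.3%) had no peak of any of the 6 other proteins, against 46.1% of the other genes. The share was 65.7% in the pericentric set, 100% in the array, 60% in the flank and 37.5% in the distal set. The 138 genes included 72 known only by a CG number (52.2%, against 44.6% of all genes), all 21 of the array among them. RNA Pol II was on 16 of the 72, beside 31.9% of the 138 genes and 46.2% of all genes. As the array had none, this count is not read as a trait of genes with a CG number. Chemoreceptor and odorant-binding genes (symbols starting with Gr, Or, Ir or Obp) made up 3 of the 138 (2.17%), close to the 1.69% of all genes. These were Ir31a, Ir40a and Ir41a, which had no RNA Pol II, like 94 of the 138 genes.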

How the data were processed

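Targeted DamID-seq peak lists of 7 proteins in ISCs were analysed, and the RNA-seq samples were not. According to the methods and labels, the authors aligned reads to release 6 of the genome with Bowtie2, counted them per GATC site with bedtools, dropped sites with few counts, compared 3 fusion samples with 3 Dam-only samples using DESeq2, and joined adjoining significant sites as peaks. The deposited lists hold chromosome arm, start and end only, with no count, score or value per sample, and neither depth, replicate spread nor tests were available.

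Peak starts count from 0 and were converted to 1-based positions. Genes came from the RefSeq table of the same release. All 138 genes matched a FlyBase identifier, and 1 gene over 50% (RpS19b) was left out by its symbol. A peak was assigned to every gene whose body it overlapped by 1 bp or more. Shares over all 13633 genes served as background. The genes, gene lists and sets were chosen with earlier results of these data known. Genes were named if they were on the classical list, had the most base pairs of RNA Pol II inside HP1 (10 genes) or of another protein (3 each), were the 3 longest or shortest, were the 3 nearest the threshold on each side, or were the 5 farthest out; others were named after their values were seen. Overlaps were checked on simulated data. Python 3.11.15, NumPy 2.4.6, pandas 2.3.3 and matplotlib 3.10.9 were used.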

Additional observations from a re-analysis of the deposited data

How the results depend on the processing

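The lists carry no score or value per sample, and no fit without a library was run. No paired analysis was possible because each list is 1 call over all samples of a fusion and no result comes from a test. Promoter windows of the genes were not analysed because no sequence was used here. Of 123 alternatives over these results, 88 kept a share inside the 95% Wilson interval of the reported one, which covers counting over genes only, or a count within 1.5 times of it.

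The number of HP1-covered genes was 221 at a threshold of 25%, 74 at 75% and 35 at 100%, and 88 or 45 when limited to 5 or 2 Mb from the centromere-proximal end. RNA Pol II was on 21.6% of the genes at 75% and 0% at 100%, on 20.3% when at least 10% of the body had to be in peaks (37.3% of all genes) and on 18.8% with peaks of at least the median length (31% of all genes). At 100% Kismet, Trr and H1 also fell to 0%, H1 was at 0% under the 10% rule, and Trr was on 13.8% with 1 kb added on both sides (31.7% of all genes) and on 2.17% with its longer peaks (15.1%). Polycomb was at 0% with at least 200 bp, with 10% of the body, with longer peaks and without X, since 1 gene carried it. The share with RNA Pol II inside HP1 was 23.9% of the 138 genes. It was 14.5% with at least 200 bp, 13.8% with longer RNA Pol II peaks, 12.3% with longer HP1 peaks and 0% at 100%.

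Alternatives chosen after seeing the data used genes within 6 Mb. These had RNA Pol II in 21.2%, Kismet in 2.02%, Trr in 1.01% and Polycomb in 0% of cases, and RNA Pol II inside HP1 in 13.1%, or in 4.04% once overlaps of 4 bp were left out, which over all 138 genes gave 14.5%. The X array made up 21 of the 74 genes at 75% and 21 of the 35 at 100%. Without it RNA Pol II was on 30.2% of the genes at 75%, inside the interval of the reported share, and at 100% RNA Pol II, Kismet, Trr and H1 were on 0% and Polycomb on 7.14% of 14 genes. Leaving out each arm moved no share outside its interval except Polycomb without X. Over genes of at least 5 kb, RNA Pol II was on 29.5% of HP1-covered and 60.9% of other genes.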
